A study of Mus musculus with 3 samples.

Results

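The ISG15 conjugation pathway was followed through the cells of the ageing mouse retina in its 5 listed genes, of 32285 genes in the count matrices. They were listed by role, as the tag and the enzymes that activate, carry, attach and remove it, with earlier results of these data known. Isg15 encodes a small ubiquitin-like protein. Uba7 is its activating enzyme, Ube2l6 the conjugating enzyme that carries it, Herc6 the main ligase that joins it to target proteins in mice, and Usp18 the protease that takes it off again. Type I interferon switches on all of these genes in many cell types, through the receptor chains Ifnar1 and Ifnar2, the kinases Jak1 and Tyk2, and the transcription factor complex ISGF3, with Stat2 and Irf9 among its subunits. Usp18 also binds the Ifnar2 chain and dampens the signal, independently of its protease activity, and ISG15 that is not joined to a target can be released from cells and act as a cytokine. Endothelial cells, which form the inner blood-retina barrier, carry this receptor.

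Retinas had been taken from C57BL/6JRj mice at 3 ages, 3 months for the young, 12 months for the adult and 23 months for the old group, then dissociated and enriched on magnetic beads for CD31, a surface protein of endothelial cells. No other treatment or genotype separated the groups. Retinas of 2 animals were pooled at each age and gave 1 single-cell RNA library per age, so that animals could not be told apart and no difference between ages has a replicate check. No test, p-value or standard error is given for that reason, and every interval below is a 95% interval for counting error alone. The bead step set which cells entered the libraries, and age and the day of preparation cannot be told apart where each age is 1 library.

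The young, adult and old library held 2491, 3243 and 2751 barcodes and 16577026, 19977238 and 17021820 unique molecular identifiers (UMIs), each of which marks 1 captured transcript. After the filters, 1705, 1957 and 1701 cells remained, with median counts of 6353, 5964 and 6296 UMIs. Pairs of libraries shared between 0 and 3 cell barcodes. The endothelial class, named from markers, held 507, 504 and 495 cells. All 12 endothelial markers were present in it at every age, with Cldn5, a tight junction protein, at 4785, 5001 and 4954 CPM, the UMIs of the gene per 1000000 UMIs of the class. Their sum was 18382, 19128 and 19169 CPM, and single markers differed more. Ly6c1 was at 2011, 2297 and 3113 CPM and Slco1a4 at 1548, 1411 and 1263. Markers of other cells were also counted in this class. The 10 pericyte markers, none of them at 0, summed to 2036, 2118 and 1405 CPM, and the 6 erythroid markers, none at 0, to 531, 196 and 1309 CPM. The 7 neutrophil markers summed to 11.7, 171 and 0.771 CPM, with Csf3r and Mmp8 at 0 in the young library and S100a8, Retnlg, Csf3r, Mmp8 and Mmp9 at 0 in the old one. The 10 markers of pigment epithelium summed to 7.33, 7.32 and 49.9 CPM, with Rpe65, Lrat and Mlana at 0 in the young library, Rpe65 and Lrat in the adult one and Mlana in the old one.

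Isg15 (ENSMUSG00000035692) lies on the minus strand at chr4:156199424-156200818 in GRCm38 (mm10) and has 2 exons in GENCODE M21. The bases in front of the start site are shown for Isg15 because the interferon-stimulated response element, the site that ISGF3 binds, is the best known switch of the pathway. RefSeq (GRCm38.p6) gave a start site for 4 of the 5 genes, and the 250 bases before each were searched on both strands for 3 patterns. The response element, GAAA followed by any 2 bases and a further GAAA, was found in 3.06% of 27025 promoter windows of that length. AANNGAAA, the core that interferon regulatory factors read and that every match of the first pattern also holds, was found in 21.7%, and TTCNNNGAA, the gamma-activated site, in 7.11%. Isg15 held the first pattern 3 times in overlap, between 57 and 78 bases before the start, and the core once more on the other strand, 121 to 128 bases before it. Capitals mark these matches in the window chr4:156200819-156201068, which is written 5′ to 3′ on the minus strand.

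Isg15: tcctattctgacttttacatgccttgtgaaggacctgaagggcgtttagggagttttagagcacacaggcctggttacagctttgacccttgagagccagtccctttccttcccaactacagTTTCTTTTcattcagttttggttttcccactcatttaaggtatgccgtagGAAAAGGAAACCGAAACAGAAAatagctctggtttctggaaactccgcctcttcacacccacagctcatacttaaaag

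Uba7 (ENSMUSG00000032596) lies at chr9:107975505-107984060 on the plus strand with 24 exons and is overlapped on that strand by Gm20661. Its window held the core pattern once, on the other strand, 20 to 27 bases before the RefSeq start. GENCODE places the start 62 bases further upstream, so that the match lies after that start, inside the gene. A stretch of 30 bases around the match, chr9:107975529-107975558 on the plus strand, is shown for comparison with Isg15, with the match in capitals.

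Uba7: actcagtctagTTTCACTTttggtttcctg

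Ube2l6 (ENSMUSG00000027078, chr2:84798828-84810335, plus strand, 4 exons) and Herc6 (ENSMUSG00000029798, chr6:57581000-57664632, plus strand, 23 exons) held none of the 3 patterns in their windows. These letters are then not in those 250 bases, which says nothing of more distant sequence or of a factor. Of the 4 windows, 1 held the response element, 2 the core and 0 the gamma-activated site. Usp18 (ENSMUSG00000030107) lies at chr6:121245906-121270917 on the plus strand with 11 exons, and the long noncoding gene Gm44148 overlaps it on the other strand. Herc6 is overlapped by Gm45193 on its own strand and by the pseudogene Gm19244 on the other. Gm20661, Gm45193 and Gm19244 have no row in the matrices.

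The first comparison asked which retinal cells held transcripts of the pathway. Isg15 was highest in endothelial cells and in the droplets that held endothelial markers. Its level, as the mean of the 3 libraries, was 492 CPM in endothelial cells (range 333 to 743) and 389 CPM in the droplets that carried both endothelial and pericyte markers (242 to 631). The ranges of these 2 classes overlapped. The level was 96.0 CPM in Müller glia (89.3 to 107), 89.7 in smooth muscle cells (13.0 to 156) and 77.5 in pericytes (63.0 to 85.7), and these 3 ranges also overlapped in turn. Photoreceptors and bipolar cells were far lower. Rods held 8.97 CPM (7.05 to 11.5), bipolar cells 3.58 (2.30 to 5.70), and no Isg15 UMI was counted in 245 cones. At the cones' depth a count of 0 allows up to 1.79 CPM.

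The 4 enzymes were also low in rods and cones, with differences among the other classes. Uba7 was highest in endothelial cells, at 34.7 CPM, and the ranges of endothelial cells, mixed droplets (31.3), Müller glia (26.4) and pericytes (19.6) overlapped from each class to the next. Smooth muscle cells were an exception for this activating enzyme, with 1, 0 and 1 UMI in the 3 libraries, a mean of 2.01 CPM. Ube2l6 had its highest mean in pericytes, at 30.7 CPM (24.1 to 42.8). The mixed droplets (25.0 to 39.3), endothelial cells at 27.5 and smooth muscle cells at 19.3 followed with overlapping ranges, and Müller glia stood below all 4 at 12.4 (10.3 to 14.6). The smooth muscle values rested on 6, 5 and 8 UMIs, and their counting intervals held the Müller glia values. Herc6 was at 38.7 CPM in endothelial cells, 29.8 in mixed droplets and 28.1 in Müller glia, with overlapping ranges. Pericytes (12.3, range 9.0 to 15.6), smooth muscle cells (8.97, 3.23 to 13.9) and bipolar cells (8.06, 3.64 to 12.1) followed, again overlapping. Usp18 was at 52.9 CPM in endothelial cells and 38.6 in mixed droplets, again overlapping, and then at 12.0 in Müller glia, 9.89 in smooth muscle cells and 8.43 in pericytes.

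**Figure D1:**
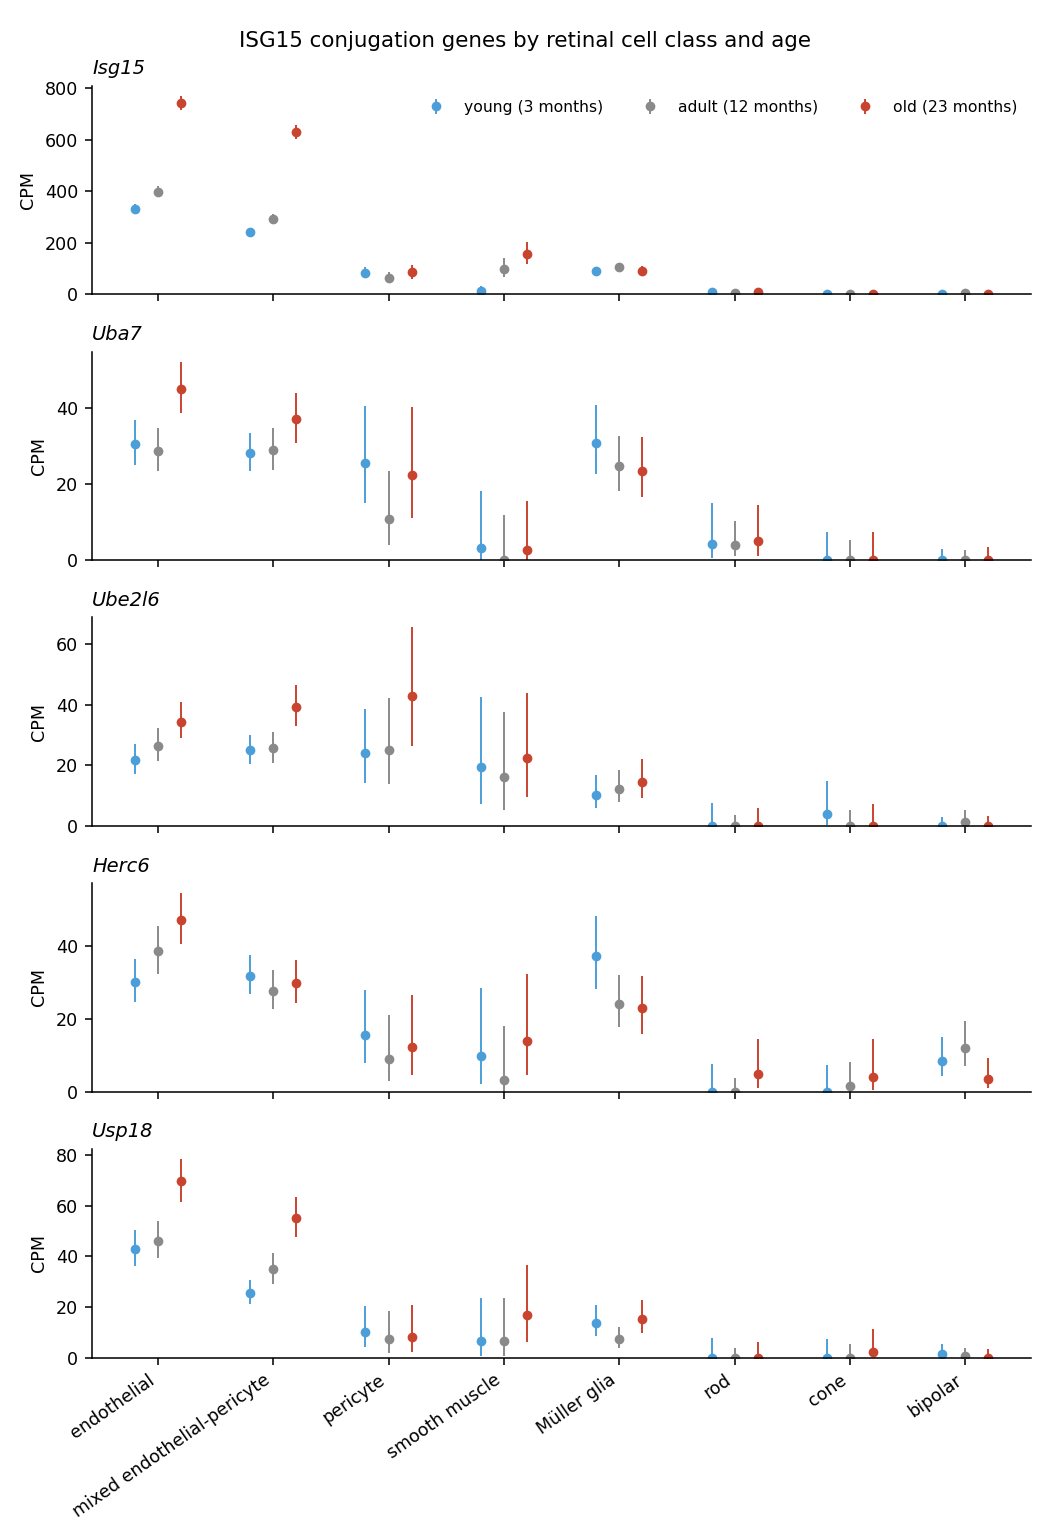
Level of the 5 genes in CPM of summed UMIs (linear axes from 0, a different scale for each gene) in the 8 cell classes that reached 30 cells at every age, with points for each of the 3 ages and bars for exact 95% Poisson intervals of counting error. Isg15 stands at 743 CPM in old endothelial cells and at 0 in cones, and rods, cones and bipolar cells lie at 12.1 CPM or less for every gene.

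Rods served as a background, since each library's rods shared its suspension, and how much of their counts was free RNA was not tested. In order of age they held 4, 7 and 7 UMIs of Isg15 (8.34, 7.05 and 11.5 CPM) and 2, 4 and 3 of Uba7. Ube2l6 and Usp18 had no UMI in 722 rods, which allows up to 1.44 CPM of each, and Herc6 had 0, 0 and 3. A count of 0 in rods allows up to 6.25, 3.02 and 4.94 CPM in these libraries, so only the Isg15 values stood above that limit at every age. Endothelial markers stood at 0.306%, 0.274% and 0.825% of their endothelial level in rods, which for Isg15 would be 1.02, 1.09 and 6.13 CPM. The young and adult rod intervals (2.27 to 21.3 and 2.83 to 14.5 CPM) lay above these values, and the old one (4.64 to 23.8) held its value. Cones of the same suspensions held no Isg15 UMI, as given above. In bipolar cells Herc6 had 11, 17 and 4 UMIs, or 8.44, 12.1 and 3.64 CPM, where Uba7 had none at any age and Isg15 had 3, 8 and 3.

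In old endothelial cells every one of the 5 genes stood above its young level. Isg15 was counted 1135, 1417 and 2892 times in young, adult and old endothelial cells, which is 333 CPM (interval 314 to 353), 399 CPM (378 to 420.1) and 743 CPM (717 to 771). The old level was 2.23 times the young one (2.09 to 2.40) and 1.86 times the adult one (1.75 to 1.99). The adult level was 1.2 times the young (1.11 to 1.30). Both the adult and the old ratio use the same young library, so they are not independent of each other. The 3 Isg15 intervals did not overlap, and the larger step lay between 12 and 23 months.

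Usp18, the remover, was at 42.8, 46.2 and 69.7 CPM from 146, 164 and 271 UMIs. Its old to young ratio was 1.63 (1.33 to 2.0), its adult to young ratio 1.08 (0.857 to 1.36). The old library alone was high, with an interval of 61.6 to 78.5 CPM that lay above both others. Uba7, the activating enzyme, was at 30.5, 28.7 and 45.0 CPM from 104, 102 and 175 UMIs, a ratio of 1.48 (1.15 to 1.90) for old over young and 0.942 (0.709 to 1.25) for adult over young. Young and adult levels of Uba7 could not be told apart at this depth. When every cell was thinned to 2000 UMIs, 36 UMIs of Uba7 remained in young and 36 in old cells and the ratio was 1.02, while the mean of the cells' own CPM gave 1.71. The Uba7 difference was thus the least settled of the 5.

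Ube2l6, the conjugating enzyme, was at 21.7, 26.5 and 34.4 CPM from 74, 94 and 134 UMIs. Its old to young ratio was 1.59 (1.19 to 2.14), and its adult value lay between the other two with an interval (21.4 to 32.4) that overlapped both. Thinned cells gave 26 young and 31 old UMIs and a ratio of 1.22. Herc6, the ligase, was at 30.2, 38.6 and 47.3 CPM from 103, 137 and 184 UMIs, with ratios of 1.57 (1.22 to 2.01) for old over young and 1.28 (0.982 to 1.67) for adult over young. For Herc6, as for Ube2l6, the interval of the adult library overlapped those of both other ages.

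In all, 4 of the 5 genes were at least 1.5-fold higher in old than in young endothelial cells, where 6.01% of the 10070 genes with at least 30 UMIs over both libraries were. The interval of the ratio lay above 1 for 5 of 5, against 11.7% of those genes. The median log2 ratio was 0.67 for the 5 genes and 0.03 for all genes. For adult over young, 0 of 5 reached 1.5-fold, against 4.10% of 10014 genes, and the interval lay above 1 for Isg15 alone, against 9.05%. For old over adult, Isg15 (1.86), Uba7 (1.57) and Usp18 (1.51) reached 1.5-fold, 3 of 5 against 3.81% of 10113 genes, and Ube2l6 (1.30, interval 0.993 to 1.71) and Herc6 (1.23, 0.978 to 1.54) did not. Of all genes, 98.7% had a lower old to young ratio than Isg15, 95.9% than Usp18, 95.4% than Ube2l6, 95.2% than Herc6 and 93.6% than Uba7.

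Erythroid and pigment epithelium markers were highest and pericyte markers lowest in the old endothelial class, as given above. Cells with more than 0.491% of their UMIs from the markers of other classes were then left out. Of 507, 504 and 495 endothelial cells, 276, 237 and 240 remained. The old to young ratio was 2.16 for Isg15, 1.43 for Uba7, 1.95 for Ube2l6, 1.53 for Herc6 and 1.51 for Usp18. The direction was the same in the cells with few transcripts of other classes' markers.

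Per cell, the difference in Isg15 appeared as more cells with a transcript and more transcripts in those cells. Endothelial cells were thinned to 2000 UMIs each, which left 466 young, 437 adult and 456 old cells, with 41, 67 and 39 shallower ones left out. Isg15 was found in 36.1% of young (31.7 to 40.6), 37.8% of adult (33.2 to 42.5) and 54.4% of old cells (49.7 to 59.0). In thinned rods of the same libraries it was found in 0%, 0.463% and 1.41%, and the share of 0 among 105 young rods allows up to 2.86%. Without thinning the endothelial shares were 57.0%, 55.4% and 70.3%, at median depths of 5316, 5274 and 6545 UMIs, against 1.81%, 1.87% and 2.98% of rods at 2287, 2423 and 2161. The intervals of the young and adult shares overlapped, and that of the old share lay above both.

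The share of cells with most Isg15 was lowest in the young and highest in the old library, on few cells. Cells with 5 or more Isg15 UMIs made up 1.72% of young, 4.81% of adult and 8.11% of old thinned cells, from 8, 21 and 37 cells. The mean was 0.665, 0.865 and 1.44 UMIs per cell, and the highest cell held 11, 9 and 12. The signal was uneven at each age, and the 47 young cells with the most Isg15 held 53.2% of its UMIs, the 44 adult cells 55.3% and the 46 old cells 42.9%. The variance of the count per cell over its mean was 2.31, 2.85 and 2.83.

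**Figure D2:**
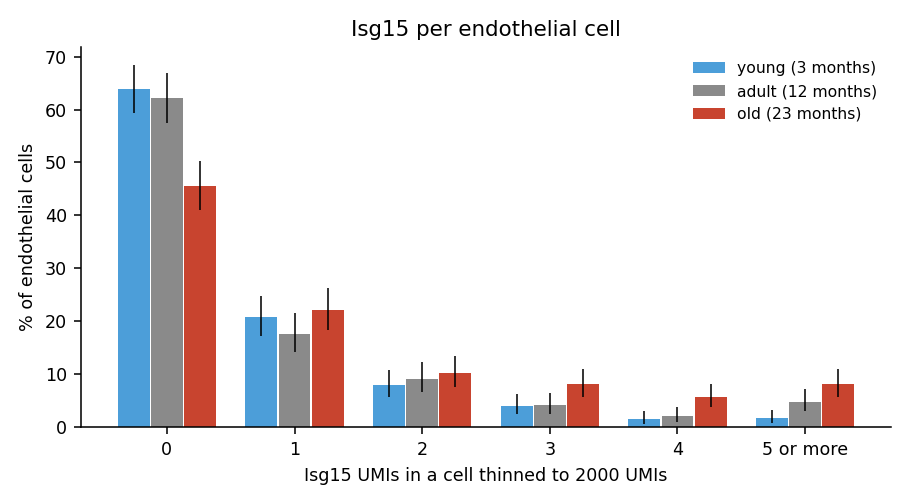
Share of endothelial cells in percent (linear axis from 0) by the number of Isg15 UMIs in a cell thinned to 2000 UMIs, with bars for the 3 ages and whiskers for exact 95% binomial intervals of counting error. Cells without an Isg15 UMI make up 63.9% at 3 months, 62.2% at 12 months and 45.6% at 23 months, and cells with 5 or more 1.72%, 4.81% and 8.11%.

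The enzymes were detected in few thinned cells, and their shares at the 3 ages had overlapping intervals. Usp18 was found in 7.08%, 8.47% and 10.3% of young, adult and old cells, Herc6 in 6.65%, 8.24% and 9.21%, Ube2l6 in 5.58%, 6.64% and 6.58%, and Uba7 in 7.08%, 5.72% and 7.46%. In rods these 4 shares lay between 0% and 1.90%. An age difference in the share of cells with an enzyme transcript was not detectable at this depth. Unthinned, the shares ran from 20.3% to 33.5% for Usp18, 15.8% to 25.1% for Herc6, 12.2% to 21.8% for Ube2l6 and 16.4% to 27.7% for Uba7, each highest in the old library, whose endothelial cells were also the deepest. Cells with transcripts of at least 2 of the 5 genes made up 13.5% (10.5 to 17.0), 12.6% (9.62 to 16.1) and 20.6% (17.0 to 24.6), and 1 old cell held all 5.

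Usp18 was found more often in the cells with 2 or more Isg15 UMIs than in those without. It was detected in 5.03%, 7.35% and 4.81% of young, adult and old cells without an Isg15 UMI and in 14.1%, 15.9% and 18.4% of those with 2 or more, and the old intervals (2.33 to 8.66 and 12.5 to 25.6) did not overlap. In the cells with 1 Isg15 UMI it was found in 8.25%, 3.90% and 9.90%, so in the adult library these were below the cells without. Ube2l6 went from 4.70%, 5.88% and 3.85% to 11.3%, 13.6% and 10.2%, with overlapping intervals at each age, and was at 4.12%, 1.30% and 6.93% in cells with 1 Isg15 UMI. Herc6 showed little of this, with 4.70%, 8.46% and 7.21% against 8.45%, 7.95% and 10.2%. Uba7 was at 4.70%, 6.25% and 6.73% against 11.3%, 4.55% and 10.2%, lower in adult and higher in young and old cells with Isg15. Irf7, the factor that amplifies type I interferon responses, was found in 15.4%, 16.9% and 30.3% of cells without Isg15 and in 33.8%, 30.7% and 51.7% of cells with 2 or more UMIs. All these cells were at 1 depth, and the shares describe 1 library each.

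Finer clustering divided the endothelial class into 4 clusters, which are called by number because their markers of vessel segment overlapped. Cluster 1 met 10 of 10 capillary markers, and cluster 3, led by Sema3g and Gkn3, met 9 of 12 arterial and 9 of 10 capillary markers. Cluster 11, led by Cyp2e1 and Slc38a5, met 7 of 10 venous and 10 of 10 capillary markers, and cluster 6, led by genes such as Fam71a, Gm26917 and Neat1, met 9 of 10 capillary markers. They also differed in depth. The median was 11887, 13908 and 15288 UMIs in cluster 11 and 2735, 2058 and 2446 in cluster 6, with clusters 1 and 3 between 4976 and 8516, and the part of depth in the differences between clusters was not tested.

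Isg15 was at 408, 446 and 875 CPM in cluster 1, at 352, 445 and 685 in cluster 3, at 224, 335 and 852 in cluster 11, and at 128, 113 and 292 in cluster 6. Each cluster was highest in the old library. The old to young ratio was 2.14 (1.93 to 2.38) in cluster 1, 1.95 (1.73 to 2.19) in cluster 3, 3.80 (3.17 to 4.58) in cluster 11 and 2.28 (1.52 to 3.50) in cluster 6, so the interval of cluster 11 lay above those of clusters 1 and 3. In the young library cluster 11 was lower than clusters 1 and 3, and in the old library it stood at the level of cluster 1.

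Herc6 had another pattern than Isg15. It was at 34.0, 30.1 and 34.5 CPM in cluster 1, a ratio of 1.01 (0.649 to 1.58), and at 20.4, 35.7 and 52.8 CPM in cluster 3, a ratio of 2.60 (1.62 to 4.29). Cluster 11 held 23.5, 42.6 and 48.1 CPM, a ratio of 2.04 (1.11 to 3.99). Cluster 6 had the highest Herc6 values at each age, 73.6, 79.6 and 68.5 CPM, with an old interval that overlapped those of the other 3 clusters, and a ratio of 0.930 (0.484 to 1.81), while its Isg15 level was the lowest of the 4 clusters. Old Herc6 levels were above the young ones in clusters 3 and 11, and the intervals of the ratios in clusters 1 and 3 did not overlap. Usp18 had ratios of 1.83 (1.31 to 2.56) in cluster 1, 1.29 (0.902 to 1.86) in cluster 3 and 2.15 (1.34 to 3.54) in cluster 11. Uba7 was at 1.51, 1.62 and 1.11 in the same 3 clusters, of which only the interval of cluster 3 (1.08 to 2.45) lay above 1, and Ube2l6 at 1.31, 1.43 and 2.22, of which only that of cluster 11 (1.05 to 5.12) did. In cluster 6 Ube2l6 had 1 young and 11 old UMIs.

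**Figure D3:**
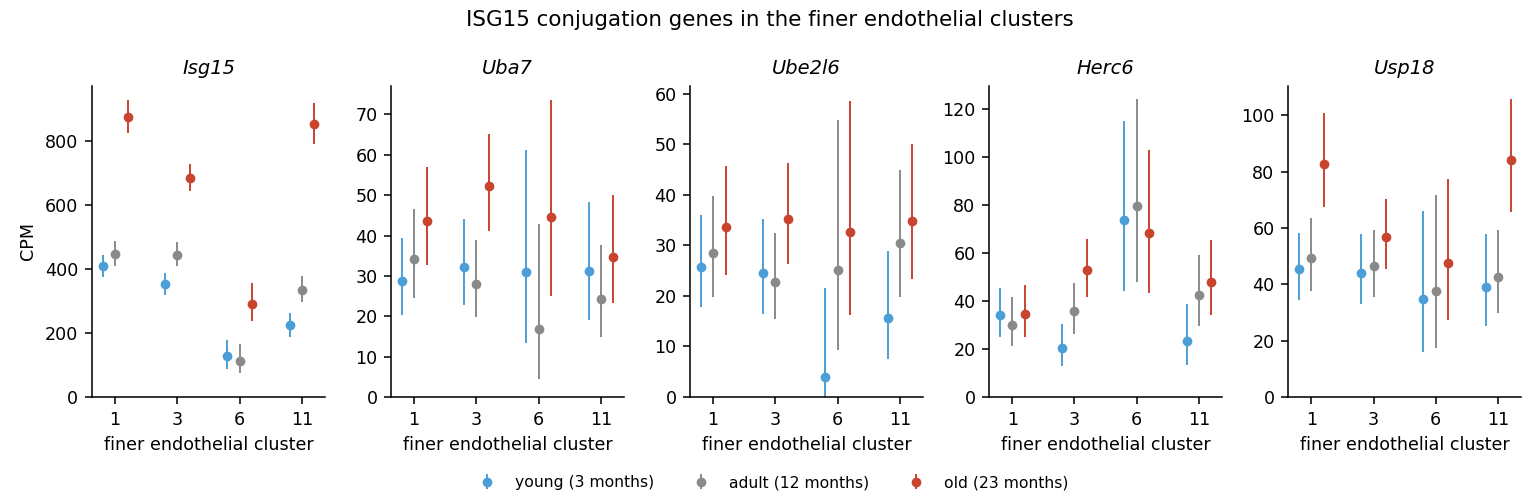
Level of each gene in CPM (linear axes from 0, a different scale for each gene) in finer endothelial clusters 1, 3, 6 and 11, with points for each age and bars for exact 95% Poisson intervals of counting error. Isg15 is highest in the old library in each cluster, and Herc6 is lowest in the young library in clusters 3 and 11 (20.4 and 23.5 CPM).

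The droplets with both endothelial and pericyte markers, 312 young, 251 adult and 223 old, held 13678, 15024 and 14744 UMIs at the median and may each hold more than 1 cell. The larger of their clusters was led by Cxcl10, an interferon-induced chemokine. Isg15 was at 242, 293 and 631 CPM there, an old to young ratio of 2.60 (2.42 to 2.80). Usp18 was at 25.7, 34.9 and 55.2 CPM, with ratios of 2.15 (1.70 to 2.73) for old and 1.36 (1.05 to 1.76) for adult over young. Both genes were highest in the old library, and Isg15 was stepwise higher over the 3 ages. For Usp18 the young (21.2 to 30.8 CPM) and adult (29.2 to 41.3) intervals overlapped, and the old one (47.6 to 63.6) lay above both. Ube2l6 was at 25.0, 25.6 and 39.3 CPM, a ratio of 1.57 (1.21 to 2.04), and 1.05 from 16 young and 12 old UMIs after thinning. Uba7 was at 28.1, 28.9 and 37.0, a ratio of 1.31 (1.02 to 1.70). Herc6 was at 31.9, 27.6 and 29.9 CPM, a ratio of 0.939 (0.721 to 1.22), and 1.21 after thinning. Its endothelial ratio was 1.57 (1.22 to 2.01), and the difference between these classes was not tested. In these droplets 3 of 5 genes were at least 1.5-fold higher in the old library, against 4.51% of 10726 genes, 0 of 5 in the adult library, against 3.50%, and 3 of 5 for old over adult, against 3.30%.

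No such difference in the tag was seen in pericytes at this depth. Isg15 was at 83.7, 63.0 and 85.7 CPM from 59, 35 and 42 UMIs in 171, 130 and 101 cells, a ratio of 1.02 (0.672 to 1.55). Endothelial markers summed to 6.33%, 6.57% and 7.91% of their endothelial level in these cells, and the same percentages of endothelial Isg15 would be 21.1, 26.2 and 58.8 CPM. The intervals of the pericyte level (63.7 to 108, 43.9 to 87.6 and 61.8 to 116) lay above these values. Without the 2 highest cells of each library, 33, 26 and 29 UMIs were left, and the 2 highest young cells had held 18 and 8. The class totals were 704818, 555705 and 490159 UMIs, so these counts are not levels. The ratio without those cells was not computed. Pericytes with an Isg15 UMI held 3, 4.5 and 10 endothelial marker UMIs at the median, against 2, 3 and 3 in those without, and the part of endothelial RNA in the level was not tested. Ube2l6 was at 24.1, 25.2 and 42.8 CPM from 17, 14 and 21 UMIs, a ratio of 1.78 (0.893 to 3.59). Only Isg15 and Ube2l6 had enough UMIs for the comparison, and 1 of those 2 reached 1.5-fold, against 10.7% of 5647 genes. Uba7 (25.5, 10.8 and 22.4 CPM), Herc6 (15.6, 9.0 and 12.2) and Usp18 (9.93, 7.20 and 8.16) rested on 4 to 18 UMIs a library.

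Smooth muscle cells, named from Acta2, Myh11 and Tagln among others, numbered 38, 37 and 37. Their Isg15 UMIs numbered 4 at 3 months, 31 at 12 months and 56 at 23 months, or 13.0, 100.2 and 156 CPM. The old to young ratio was 12.0 (4.43 to 45.5) and the adult to young ratio 7.71 (2.72 to 30). Of all genes tested in this class 12.0% and 10.4% reached 1.5-fold in these comparisons, and nothing is read from these shares, since Isg15 passed the minimum of 30 UMIs only through the later libraries. The young level (interval 3.54 to 33.3 CPM) overlapped that of rods in the same library, 8.34 CPM, and the old to young ratio ran from 6.32 with the stricter cell filter to 31.0 with the rod level subtracted. The UMIs came from 4 young, 10 adult and 17 old cells. A single adult cell held 19 of them and the highest old cell 16, and without the 2 highest cells of each library 2, 9 and 32 UMIs were left. Endothelial markers were at 1.15%, 1.52% and 1.38% of their endothelial level, which for Isg15 would be 3.82, 6.07 and 10.3 CPM. The ratio without those cells was not computed, and the size of the age difference rests on few transcripts. Of the other genes, Ube2l6 was at 19.5, 16.2 and 22.3 CPM, and Uba7, Herc6 and Usp18 had 6 UMIs or fewer in each library.

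Müller glia, the radial support cells of the retina, went another way for the ligase. Herc6 was at 37.3, 24.2 and 22.9 CPM from 58, 47 and 36 UMIs in 175, 214 and 210 cells. The young library alone was high, and the ratios were 0.615 (0.394 to 0.948) for old and 0.649 (0.432 to 0.970) for adult over young. Cluster 4, with most of the cells, was at 22.9, 18.0 and 15.8 CPM, a ratio of 0.689 (0.382 to 1.22). Cluster 11, with 33, 34 and 47 cells, had fewer UMIs per cell and genes such as Utp14b and Adam23 in the lead. It was at 163, 90.7 and 78.6 CPM from 26, 15 and 14 Herc6 UMIs, a ratio of 0.483 (0.233 to 0.959). The direction was the same in both clusters, and only the interval of cluster 11 lay below 1. Isg15 was at 89.3, 107 and 92.3 CPM, a ratio of 1.03 (0.813 to 1.31), Uba7 at 30.8, 24.7 and 23.5 (0.764, 0.484 to 1.2), Ube2l6 at 10.3, 12.3 and 14.6 (1.42, 0.720 to 2.88) and Usp18 at 13.5, 7.20 and 15.3 (1.13, 0.604 to 2.14). Cells thinned to 2000 UMIs gave other ratios on few UMIs, 0.476 for Isg15 (33 young and 16 old UMIs), 0.316 for Herc6 (28 and 9), 3.44 for Ube2l6 (2 and 7) and 0.546 for Usp18 (9 and 5). Isg15 and Usp18 thus turned direction there, and Herc6 did not.

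Herc6 alone of the 5 genes was at least 1.5-fold lower in old than in young Müller glia, against 5.40% of 9090 genes, and 0 of 5 were 1.5-fold higher, against 7.18%. For adult over young, Herc6 and Usp18 (0.534, 0.251 to 1.1) were 1.5-fold lower, 2 of 5 against 5.05% of 9389 genes. For old over adult, Usp18 was higher at 2.12 (1.05 to 4.43), 1 of 5 against 5.51%. Endothelial markers stood at 7.86%, 6.98% and 7.39% of their endothelial level in Müller glia, which for Isg15 would be 26.1, 27.8 and 54.9 CPM.

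The rest of the pathway was read from 6 lists in endothelial cells, with a gene counted where it had at least 30 UMIs, and against the same 6.01% of all genes. Among the other ISG15 ligases and removers, 0 of 6 genes were at least 1.5-fold higher in the old library, and their median log2 ratio was 0.14. Trim25, a ligase that also activates the RNA sensor RIG-I, was at 75.9, 75.4 and 78.7 CPM, and Arih1, a ubiquitin ligase also known to join ISG15, at 48.4, 54.9 and 56.0. Usp14, a proteasome-bound deubiquitinase, had a ratio of 1.27 (1.01 to 1.60). Usp2 and Usp13 had too few UMIs for a comparison. Usp21 was also at 1.27 (0.846 to 1.93).

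Of the interferon receptor and its signalling chain, 2 of 7 genes were at least 1.5-fold higher in old cells, with a median log2 ratio of 0.11. Irf7 stood at 121, 130.0 and 349 CPM, a ratio of 2.88 (2.58 to 3.22). Stat2 was at 46.3, 54.0 and 72.2 CPM, a ratio of 1.56 (1.28 to 1.91). Irf9, the DNA-binding subunit of ISGF3, had 1.32 (1.12 to 1.55). The receptor chains and kinases stayed between 0.934 and 1.08, with Ifnar1 at 0.934 (0.844 to 1.03) and Ifnar2 at 0.995 (0.913 to 1.08). Skp2, part of a ubiquitin ligase that turns over Usp18, had 10 young and 11 old UMIs.

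Among proteins known to carry ISG15, 3 of 10 were at least 1.5-fold higher, with a median log2 ratio of 0.22. These were Ifit3 (2.49, 2.21 to 2.82), Ifit1 (1.97, 1.77 to 2.18) and the RNA sensor Ifih1 (1.5, 1.28 to 1.77). Mx1, also on that list, was not analysed here. Eif2ak2, at 1.37 (1.14 to 1.64), was below 1.5-fold with an interval above 1. Carriers with intervals around 1 included Pcna (1.1, 0.906 to 1.34), Ube2n (1.03, 0.878 to 1.2) and the RNA sensor Ddx58 (1.05, 0.869 to 1.28). Of the receptors and readers of ISG15, 0 of 3 with enough UMIs were past 1.5-fold, and the subunits of the integrin LFA-1 that binds secreted ISG15 had few UMIs, with 1, 8 and 1 of Itgal and 0, 9 and 0 of Itgb2 in order of age. Neutrophil markers in this class were highest in the adult library too, at 171 CPM, and their part in these counts was not tested.

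The closest relatives of the 5 genes in the ubiquitin system differed little. Herc3 was past 1.5-fold, 1 of 11 genes, at 1.53 with an interval of 0.908 to 2.65 from 24 and 42 UMIs, and the median log2 ratio was 0.09. Uba1, the ubiquitin counterpart of Uba7, was at 1.11 (0.923 to 1.34). Ube2l3, the closest relative of Ube2l6, was at 1.07 (0.941 to 1.22), and the ubiquitin gene Ubb at 1.07 (1.03 to 1.1). Herc1 was lower, at 0.822 (0.702 to 0.962). In the SUMO, NEDD8, UFM1 and other ubiquitin-like systems 0 of 17 genes were past 1.5-fold and the median log2 ratio was 0.14. For adult over young, no gene of the 6 lists except Herc3 was past 1.5-fold.

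**Figure D4:**
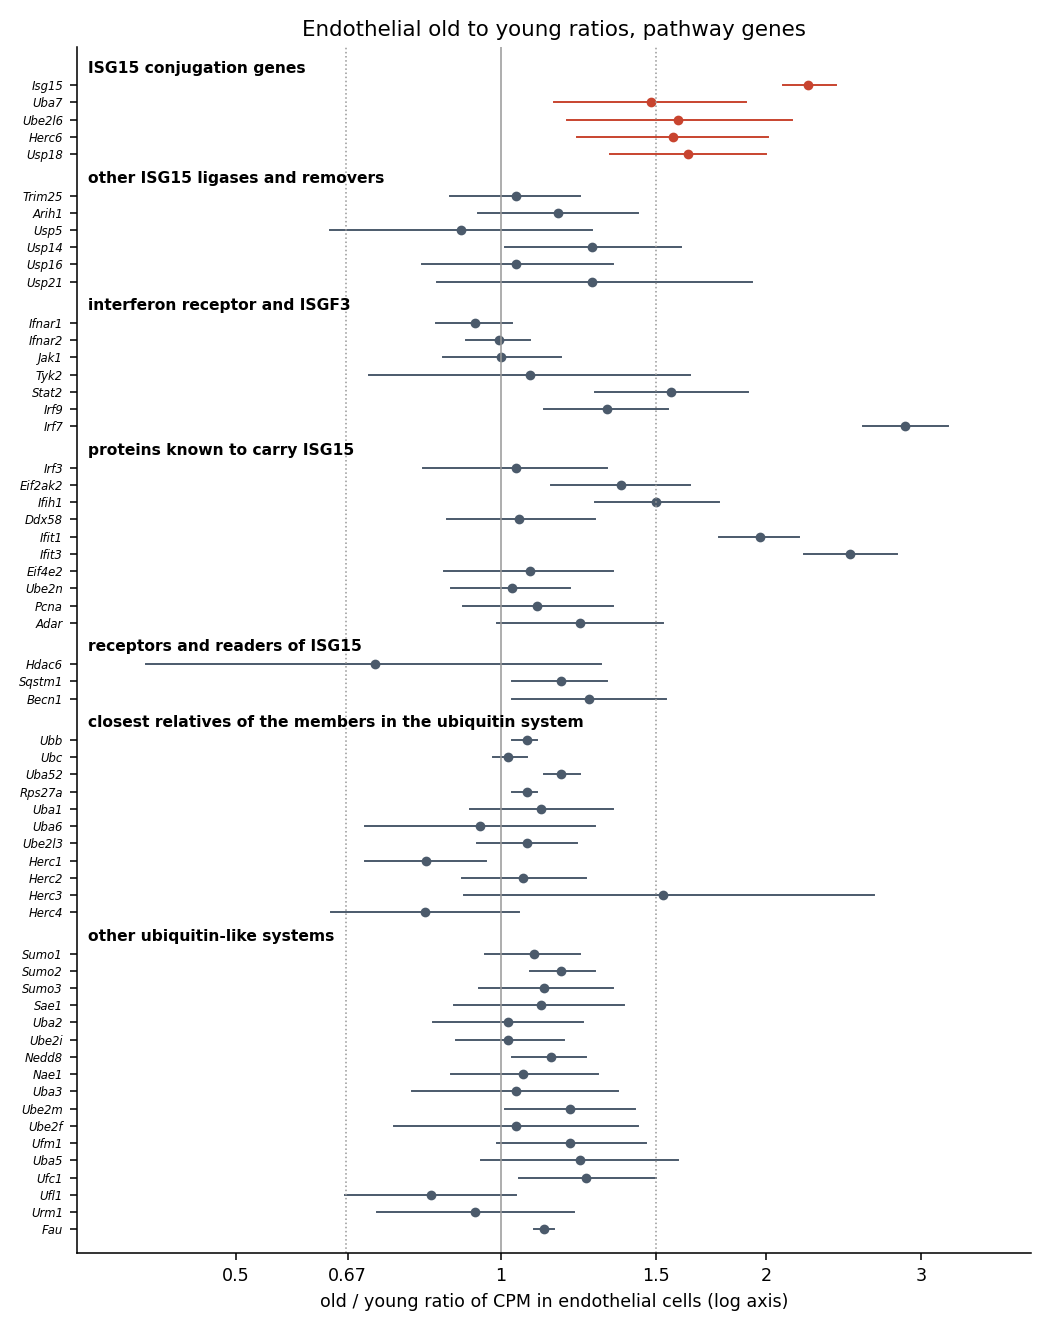
Old to young ratio of CPM in endothelial cells (log axis) for the 5 ISG15 conjugation genes and for the other pathway genes with at least 30 UMIs, grouped by list, with bars for exact conditional 95% intervals of counting error and dotted lines at 1.5-fold in either direction. The 5 genes lie between 1.48 and 2.23 with intervals above 1, Irf7 at 2.88 lies furthest to the right, and the other ubiquitin-like genes lie around 1.

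The genes whose level was most like that of each member over the 24 pairs of class and library were found among 11222 genes by Pearson's r of log2(CPM + 10), as a description, since the pairs share libraries and depth. For Isg15 they were Gbp2 (0.983), Gbp7, Csf1, B2m and Xaf1. For Usp18 they were Rnf213 (0.974), Samd9l, Gbp2, Dap and Psmb9. The genes most like Uba7 were Ptn (0.965), Stk10, Prex2, Ucp2 and Smox, those most like Ube2l6 were Arhgdia (0.979), Cd151, Tnfrsf1a, Rela and Hsd17b11, and those most like Herc6 were Efnb2 (0.944), Qk, Msrb2, Hdac7 and Pld2. With a pseudocount of 1 in place of 10, between 1 and 4 of the 5 named for each member stayed among its first 5. Between members, r was highest for Isg15 with Usp18, at 0.95, and lowest for Ube2l6 with Herc6, at 0.72.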

How the data were processed

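Single-cell RNA was measured in 1 library per age from CD31-enriched retina. The deposited values were raw UMI counts for each gene and barcode, made per the labels with Cell Ranger 6.1.2 on mm10. Barcodes outside the filters were still present, and 0 columns belonged to no sample. The 5 genes and all lists were chosen with earlier results of these data known, and the text names the 5 genes, list genes past 1.5-fold with selected others, and the 5 genes most like each member. A gene of the pathway lists is not reported here and was left out of their counts.

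Cells with 500 to 6000 genes and 1 to 20% mitochondrial UMIs were kept. Scrublet (scanpy 1.11.5), in place of the caller in the study's methods, marked 8, 17 and 12 doublets, which were removed. The adult and old call rates are 0.861% and 0.701% and the young one is 0.467%, so some doublets remain, and mixed droplets were kept as classes of their own. Cells were integrated and clustered in Seurat 5.3.0 (R 4.3.3; 2000 features, 30 components, resolution 0.5, finer clusters at 1), with 255 interferon genes kept out of the features. A cluster was named from 3 or more markers, each in at least 20% of its cells and at 25% or more of the highest cluster's level, and was called mixed when it met 60% of another class's markers. These limits were chosen with the clusters in view, and names rebuilt here may differ from the study's.

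UMIs were summed per class and library and divided by the class total. CPM from a 3′ kit are not corrected for transcript length, so levels are compared between cells and not between genes. Sums carry exact Poisson intervals, ratios exact conditional intervals and shares Clopper-Pearson intervals (scipy 1.17.1), all at 95% and for counting error only. The floor for a count of 0 is 3 counts. Classes with 30 cells in each library and genes with 30 UMIs over 2 libraries were compared. The code was tested on simulated data. Whether counting used strand is not given in the sources used here.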

Additional observations from a re-analysis of the deposited data

Results flagged for a closer look

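The summed Herc6 level differed in direction between endothelial cells and Müller glia. Its old to young ratio was 1.57 (interval 1.22 to 2.01) in endothelial cells and 0.615 (0.394 to 0.948) in Müller glia, each from 1 library per age. The endothelial level was lowest in the young library and the Müller glia level was highest in it. In finer endothelial clusters 3 and 11 the interval of the ratio lay above 1. The ratio was 1.01 (0.649 to 1.58) in finer cluster 1 and 0.930 (0.484 to 1.81) in finer cluster 6. Among Müller glia, cluster 4, with most of the cells, was at 0.689 (0.382 to 1.22) and cluster 11 at 0.483 (0.233 to 0.959). The difference between the classes was not tested.

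Ube2l6 stood out in a class that no age comparison used, the droplets with endothelial and erythroid markers. Its level over all libraries was 189.5 CPM there, from 265 UMIs in 58 of 66 droplets, against 27.8 CPM in endothelial cells and 0 UMIs in rods. It was at 182, 178 and 212 CPM in 21 young, 24 adult and 21 old droplets, in 20, 21 and 17 of them, so the level did not rest on a few droplets. Isg15 was at 197, 324 and 433 CPM in the same droplets. Their leading genes were haemoglobins, Alas2 and other erythroid genes, and their median counts were 21867, 19092 and 17874 UMIs.

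Uba7 stood out in the cells with pigment epithelium markers, led by Ttr, Rgr and Rpe65. Its level over all libraries was 209 CPM, against 35.1 CPM in endothelial cells. These cells numbered 1 young, 7 adult and 53 old, so the value is in practice that of the old library, at 231 CPM from 59 UMIs in 28 of 53 cells, with at most 6 in a cell. Without the 2 highest cells 48 UMIs were left. The other 4 genes had fewer than 10 UMIs each in this class, and the class was not compared between ages.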

How the results depend on the processing

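No paired analysis was possible because each age is 1 library and the ages share no more than 1 replicate number. For the 10 age ratios of the 5 genes in endothelial cells, 97 of 100 values under the alternatives stayed within the counting interval of the reported ratio, and none reversed. The exceptions were Isg15 old over young at 2.46 with the mixed droplets counted as endothelial, and, with cells thinned to 2000 UMIs, Uba7 old over young at 1.02 and Isg15 adult over young at 1.30. The cause was not tested. Over all alternatives the old to young ratios ran from 2.14 to 2.46 for Isg15, 1.02 to 1.71 for Uba7, 1.22 to 1.95 for Ube2l6, 1.26 to 1.70 for Herc6 and 1.51 to 1.90 for Usp18. Leaving out the endothelial cells of low UMI count, an alternative chosen after seeing the data, gave 2.25, 1.48, 1.49, 1.70 and 1.65 in that order. In the other classes 83 of 91 alternative values of the old to young ratio stayed within the interval and 8 moved. Of the 91, 12 lay on the other side of 1 from the reported ratio, for 5 ratios whose own intervals held 1, namely Isg15 in pericytes, Isg15, Uba7 and Usp18 in Müller glia and Herc6 in the mixed droplets. All 15 shares of endothelial cells were higher without thinning. The Herc6 ratio in Müller glia ran from 0.316 to 0.641 and the Isg15 ratio in smooth muscle cells from 6.32 to 31.0. With a minimum of 100 UMIs in place of 30, the share of genes at least 1.5-fold higher in endothelial cells was 3.35% in place of 6.01% for old over young and 1.39% in place of 4.10% for adult over young. With 1 library per age, depth limits only the counting error, and differences between animals or preparations were not measured.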

Other observations

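Immune cells of the suspension held Isg15 as well. The droplets with markers of T or NK cells and of microglia or macrophages, 9 young, 28 adult and 14 old, were at 42.6, 132 and 197 CPM of Isg15, from 55 UMIs in 18 of 51 droplets in all. B cells, of which the young library had only 10, were at 0, 6.33 and 48.7 CPM, with 12 UMIs in 7 of 57 old cells. In the droplets with astrocyte and lens markers Usp18 was at 48.2 CPM in the adult library, from 39 UMIs in 14 of 37 droplets, of which 19 UMIs were left without the 2 highest droplets, while Isg15 had 12 UMIs in all 44 such droplets. These classes held too few cells in at least 1 library for a comparison between ages.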
